A study of Mus musculus with 27 samples.

Results

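Arsenic feed was compared with control feed in the ileum, the last stretch of the small intestine, over all genes expressed there. The comparison uses every ileum library of the series, 9 of 27: arsenic feed libraries 11, 12, 13, 14 and 15 (n = 5) and control feed libraries 1, 2, 3 and 5 (n = 4). All came from male C57BL/6 mice that were 6 weeks old at the outset, were acclimatized for 7 days and then ate their feed for 60 days. The arsenic group ate standard feed into which 30 ug/g of arsenic had been mixed, of which 72.7% was sodium arsenite, 19.0% DMA, 7.3% sodium arsenate and 1.0% MMA, DMA and MMA being methylated forms. The control group ate the standard feed alone. Each diet had 10 mice, and the labels do not state which mouse gave which library, so p-values measure the spread between libraries. Poly-A RNA was sequenced and reads were counted per gene. Levels are given as CPM, the read count divided by the TMM-scaled size of its library, listed by library number within a diet.

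Arsenite binds to thiol groups of proteins. Cells meet it with metallothioneins, small cysteine-rich proteins that hold metal ions, with heat shock chaperones that refold damaged proteins, and with enzymes that methylate arsenic and conjugate it for export. The ileum absorbs most of the bile acids of the gut through a transporter and a binding protein that are scarce in the upper small intestine. The levels of these genes are therefore used here as markers of position along the small intestine.

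The tissue label was checked first. Every ileum library held markers of the small intestine and lacked those of the large intestine. The Paneth cell defensin Defa24 lay at 1311 to 4235 unscaled CPM in the ileum, against at most 13.9 in the cecum and 36.0 in the colon. Car1, a carbonic anhydrase of the large intestine, reached at most 23.8 unscaled CPM in the ileum, against 23459.7 to 29769 in the cecum, and Hoxb13, a gene of the hindgut, had no count in any ileum library. The ileum libraries held 15717600 to 18208518 counts each. Of the lists of other cell types, the B cell and follicle markers summed to 13.3 to 512 CPM in arsenic libraries and to 16.3 to 228 CPM in control libraries. The markers of fat, pancreas, liver, blood and skin summed to 97.8 to 1282 CPM on arsenic and 392 to 766 CPM on control feed. Of the 13 and 11 members tested of these 2 lists, 0 passed edgeR's test, also at an unadjusted p under 0.05, and 0 passed in DESeq2.

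Genes of position along the ileum differed between libraries of the same diet, mostly among those on arsenic. Fabp6, the ileal bile acid binding protein, had 3925, 981, 4181, 6.16 and 1.31 CPM in arsenic libraries 11 to 15, against 225, 1077, 4373 and 1897 CPM in control libraries 1, 2, 3 and 5. Arsenic 14 and 15 held almost none of it, arsenic 11 and 13 were near the highest control library, and the diets overlapped. Its log2 fold change of -0.06 ± 1.65 (arsenic over control, ± SE) gave an edgeR adjusted p of 0.988. Slc10a2, the transporter that takes bile acids into the enterocyte, followed the same order in the arsenic group, with 239.7, 92.1, 460.3, 8.16 and 4.19 CPM on arsenic and 41.6, 126, 462 and 259.6 CPM on control feed. Genes of the upper small intestine ran the other way. Fabp1, the fatty acid binding protein of the liver and upper gut, had 31.1, 1245, 23.1, 608 and 1550.4 CPM on arsenic and 519, 297, 48.9 and 92.2 CPM on control feed. Gata4, the factor that keeps the upper gut programme on, had 30.8, 93.3, 24.4, 134 and 180.2 CPM on arsenic and 73.6, 64.8, 49.4 and 66.3 CPM on control feed, so that its arsenic libraries lay on both sides of every control library. Lactase (Lct) ranged over 66.8 to 3058 CPM on arsenic and 279.5 to 1197 CPM on control feed. Cubn and Amn, also taken as distal genes, did not follow Fabp6. In arsenic 15 they had 526 and 474 CPM, more than in any other ileum library, while Cubn was lowest in arsenic 14 (55.4 CPM). Whether the pieces were taken at different positions was not tested.

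**Figure D1:**
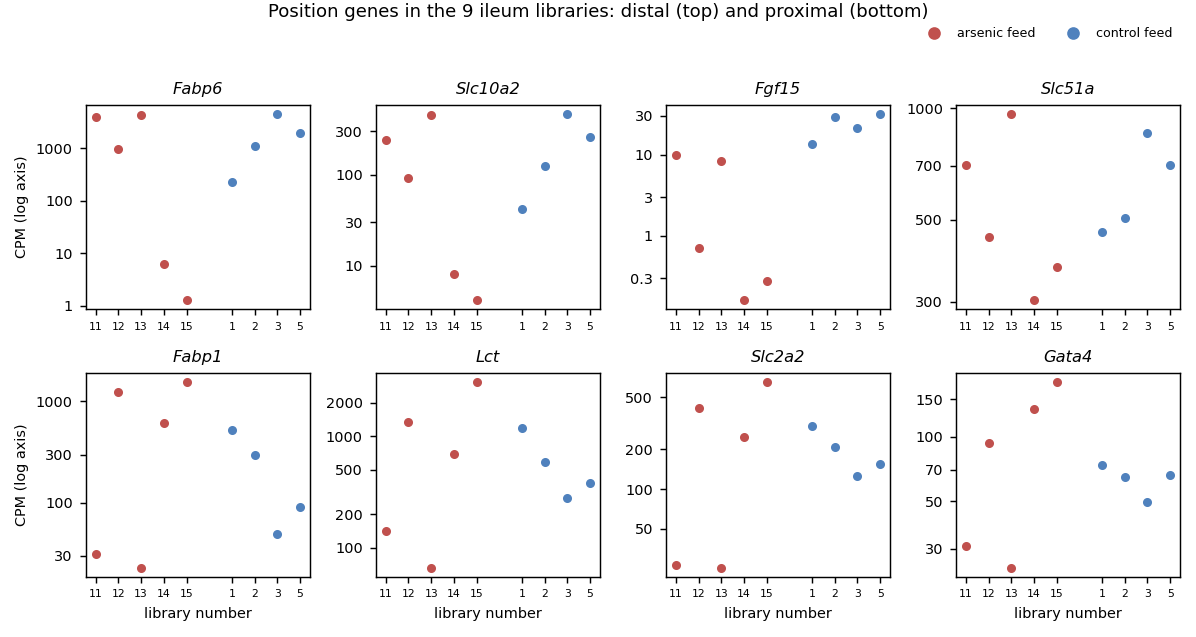
CPM (log axis) of 8 position genes in the 9 ileum libraries, 1 point per library, arsenic libraries 11 to 15 left of control libraries 1, 2, 3 and 5; distal genes are in the upper row and proximal genes in the lower row. Fabp6 lies at 6.16 and 1.31 CPM in arsenic 14 and 15, while Lct, Slc2a2 and Gata4 are lowest in arsenic 11 and 13.

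No position gene passed the edgeR test between the diets, taking an adjusted p under 0.05. Of the distal list 0 of 10 genes tested passed, with 3 lower at an unadjusted p under 0.05 and 1 lower in DESeq2. Of the proximal list 0 of 12 passed, with 0 at an unadjusted p under 0.05 and 0 in DESeq2. The median log2 fold change was -0.31 over the distal genes and 0.50 over the proximal genes, beside -0.00 over all genes tested. In whole tissue, fewer cells of a type and less RNA per cell cannot be told apart. The 3 distal genes with an unadjusted p under 0.05 were Slc51b, Nts and Fgf15. Slc51b, a subunit of the carrier that passes bile acids on to the blood, had 41.2, 41.5, 53.9, 25.7 and 33.9 CPM on arsenic and 50.1, 65.5, 87 and 58.1 CPM on control feed (-0.73 ± 0.21 on the log2 scale, edgeR adjusted p = 0.0642). Nts, the gut hormone neurotensin, had 80.7, 59.5, 68.2, 35.1 and 50.6 CPM on arsenic and 101, 92.9, 106 and 65 CPM on control feed (-0.64 ± 0.23, adjusted p = 0.112). The diets overlapped in both. Fgf15, the hormone that enterocytes release in response to bile acids and that lowers bile acid synthesis in the liver, had 9.82, 0.714, 8.29, 0.162 and 0.275 CPM on arsenic and 13.6, 28.9, 21.4 and 31.4 CPM on control feed. Every arsenic library lay below every control library, also arsenic 11 and 13, whose Fabp6 was above that of control 1, 2 and 5. The log2 fold change of Fgf15 was -2.60 ± 0.94 with an edgeR adjusted p of 0.126 over the 9 libraries. It was -2.66 with an adjusted p of 0.0304 when Fabp6 was a covariate, but -1.88 with 0.163 without arsenic 14 and 15. Fgf15 passed in 0 of the 9 fits that leave out 1 library. With the score of the clock genes as a covariate, its log2 fold change was 0.0382, so its direction depends on that choice. Its exons overlap 2 predicted genes, and the strand setting of the counts is not given in the sources used here.

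Over all genes, 1190 of 16305 tested (7.3%) were called, that is, had a Benjamini-Hochberg adjusted p under 0.05 in edgeR's quasi-likelihood test: 656 (4.02%) rose and 534 (3.28%) fell. The 9 libraries of the 2 diets did not overlap in 2167 genes (13.3%), and 1126 genes (6.91%) were both called and not overlapping. To see which changes hold despite the spread of Fabp6, the fit was repeated without arsenic 14 and 15, the libraries with the least of it. It was also repeated with Fabp6 as a covariate and without each library in turn. Of the 1190 genes, 541 were still called without arsenic 14 and 15 and 766 with the Fabp6 covariate, 510 in both. All 1190 kept their direction in each of these 2 fits. The fit without arsenic 14 and 15 called 673 genes (4.08%) in all and the fit with Fabp6 called 898 (5.51%). Single libraries moved the count too. The fit called 1414 genes without arsenic 11, 639 without arsenic 12, 737 without arsenic 13, 598 without arsenic 14 and 1583 without arsenic 15, and 292, 121, 243 and 751 without control 1, 2, 3 and 5.

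A gene is called held below when its diets did not overlap and it was called in the same direction in all of these fits, including the 9 that leave out 1 library. There were 115 held genes (0.705% of those tested), of which 56 rose (0.343%) and 59 fell (0.362%). All 115 were also called with a score of all position genes as a covariate. They were also all of the 115 genes called in each of the 9 fits that leave out 1 library, so the other conditions removed none. Without arsenic 14 and 15 their fold changes were 82.8 to 114.7% of the values over 9 libraries, with a median of 98.3%. With Fabp6 their fold changes were 87.5 to 112.7% of those values, with a median of 99.2%. The rule required a call in these 2 fits, so this is no test of position. Another 393 called genes, 216 higher and 177 lower, lost their call in both fits; their fold changes were at a median of 92.1% and 93.8% of the values over 9 libraries. Held genes are thus those whose difference between the diets was large beside the spread between libraries, and the same values chose and describe them.

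**Figure D2:**
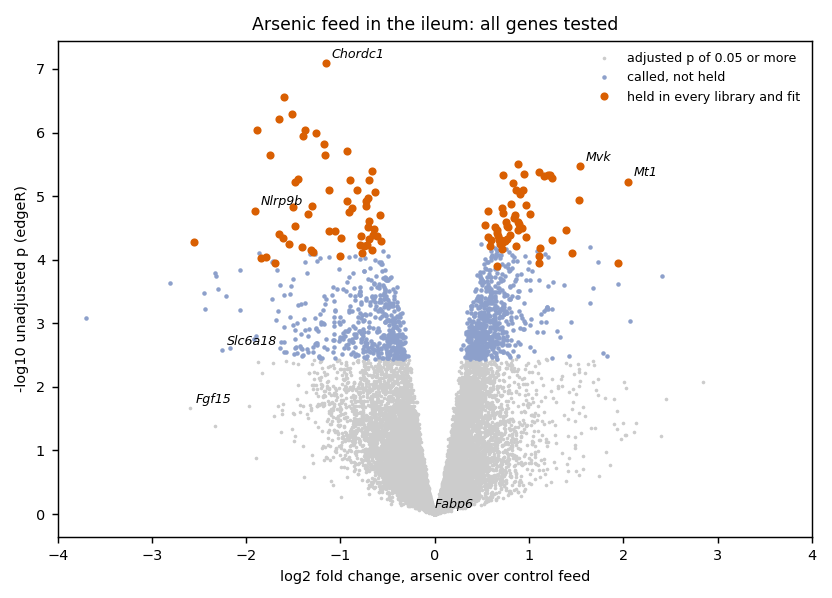
Log2 fold change, arsenic over control feed (x axis), and -log10 unadjusted p from edgeR (y axis) of the 16305 genes tested in the ileum; grey points were not called, blue points were called and orange points are the 115 held genes. Fabp6 sits at the bottom, at -0.06, while Chordc1 has the highest point and Mt1 lies at the right, at 2.05.

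**Figure D3:**
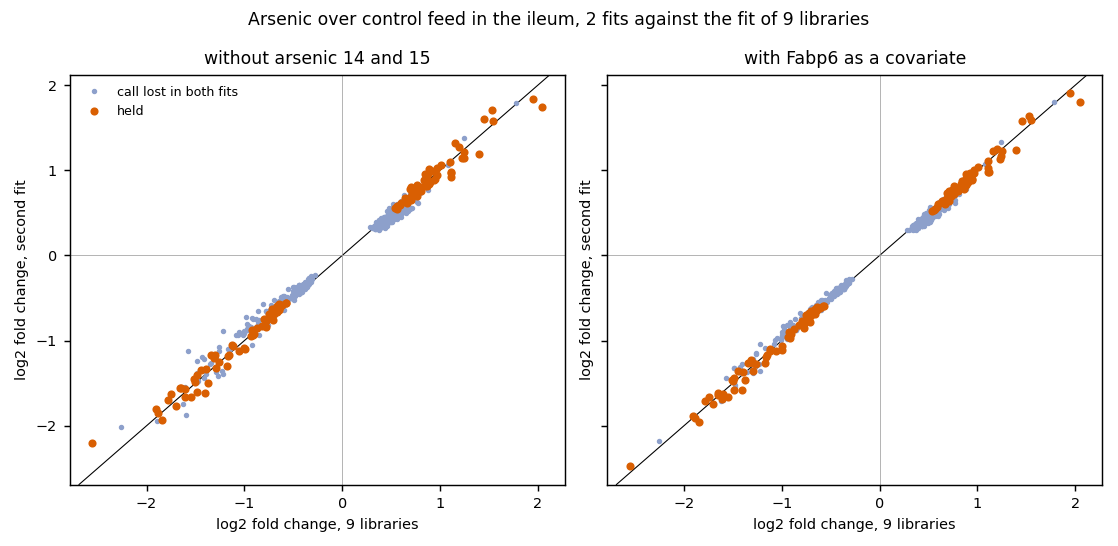
Log2 fold change over the 9 libraries (x axis) against that without arsenic 14 and 15 (left) or with Fabp6 as a covariate (right), for the 115 held genes (orange) and the 393 genes whose call was lost in both fits (blue); the line marks equal values. All points lie below 0 on both axes or above 0 on both, so no gene shown changed direction.

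The metallothionein Mt1 had the largest rise among the held genes. It stood at 104, 174, 115, 246 and 185 CPM in arsenic libraries, against 35.8, 44.5, 41.7 and 37.2 CPM in control libraries. The lowest arsenic library held more CPM than any control library. The log2 fold change was 2.05 ± 0.24 (edgeR adjusted p = 0.00357), and it was 1.74 without arsenic 14 and 15. Of 7 tested members of the metal binding and zinc transport list, 1 other rose, the zinc importer Slc39a5, with a log2 fold change of 0.55 ± 0.12 and an adjusted p of 0.0246; it was called in 5 of the 9 fits that leave out 1 library. The median of the list was -0.11. Of 14 tested genes of arsenic methylation and efflux, 1 rose, the phosphate carrier Slc20a1 (0.64 ± 0.10, adjusted p = 0.0102), which lost its call in 1 of the 9 fits. As3mt, the enzyme that methylates arsenic, had 55.6 to 80.0 CPM on arsenic and 47.8 to 56.3 CPM on control feed (log2 fold change 0.35 ± 0.12, edgeR adjusted p = 0.102). Of 24 targets of NRF2, the factor that answers oxidative and electrophilic stress, 0 passed the edgeR test, with 3 higher and 1 lower at an unadjusted p under 0.05 and 1 higher in DESeq2.

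Promoters of some held genes of the metal, heat shock and sterol lists are shown because those genes carry the pattern of rises and falls described here. Each is the 250 bases before the start of the gene, 5′ to 3′ on the strand of the gene, from RefSeq on GRCm38.p6. Capitals mark a match to a metal response element core (TGCACNC) or a heat shock element (GAANNTTC); TGCGCNC and a sterol response element (TCACNCCA) were searched too, all on both strands. The regions are chr8:94178839-94179088 (plus strand) for Mt1, chr17:34959239-34959488 (minus strand) for Hspa1b, chr5:149636337-149636586 (minus strand) for Hsph1 and chr5:114444019-114444268 (plus strand) for Mvk.
Mt1: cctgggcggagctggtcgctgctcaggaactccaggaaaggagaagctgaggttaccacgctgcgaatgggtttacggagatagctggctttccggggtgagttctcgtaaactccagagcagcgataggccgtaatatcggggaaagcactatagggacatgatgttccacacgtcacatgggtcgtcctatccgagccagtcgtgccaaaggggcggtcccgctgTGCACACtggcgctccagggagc
Hspa1b: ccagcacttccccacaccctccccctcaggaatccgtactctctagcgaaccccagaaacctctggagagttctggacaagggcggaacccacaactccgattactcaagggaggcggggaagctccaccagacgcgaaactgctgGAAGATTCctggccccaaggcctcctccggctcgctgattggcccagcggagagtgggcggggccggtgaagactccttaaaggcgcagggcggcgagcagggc
Hsph1: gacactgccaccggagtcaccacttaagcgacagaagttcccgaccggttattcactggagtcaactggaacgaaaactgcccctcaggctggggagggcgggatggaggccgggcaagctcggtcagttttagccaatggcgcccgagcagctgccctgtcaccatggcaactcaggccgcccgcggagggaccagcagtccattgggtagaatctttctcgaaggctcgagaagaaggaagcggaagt
Mvk: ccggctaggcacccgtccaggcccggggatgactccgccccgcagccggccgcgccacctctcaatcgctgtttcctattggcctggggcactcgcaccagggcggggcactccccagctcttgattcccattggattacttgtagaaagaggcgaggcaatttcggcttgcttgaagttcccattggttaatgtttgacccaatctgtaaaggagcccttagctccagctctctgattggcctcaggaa
The match in Mt1 lies 23 to 17 bases before the listed start and that in Hspa1b 104 to 97 bases before it. No match to the 4 motifs as written was found in the windows of Hsph1, Mvk, Mvd or Chordc1. The heat shock element was searched only as GAANNTTC, which reads the same on both strands. The form with its triplets in the other order was not searched. The window of Hsph1 holds that form close to its listed start, left in lower case. The lack of a marked match therefore does not mean that a window lacks a heat shock element. For Hsph1, 2 promoters are listed, and only the first was searched. Bases after the listed start of a gene were not searched, so the windows do not give every match that a gene may have. Of the 84 held genes with a promoter in the table, 5.952% hold TGCACNC, 17.86% TGCGCNC, 8.333% GAANNTTC and 3.571% TCACNCCA. Among the 11705 genes tested that have a promoter there, the shares are 10.69%, 21.06%, 5.058% and 3.195% in the same order, and among all 27025 promoters, 1 per gene, they are 10.23%, 12.56%, 6.783% and 3.582%. A match is a description of letters and not of binding.

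Genes of cholesterol synthesis were higher on arsenic. Of 21 enzymes tested, 10 rose and 0 fell, beside 4.02% and 3.28% of all genes, and the median log2 fold change was 0.67. The mean log2 CPM of the list was 5.661 (library 15) to 6.422 in arsenic libraries and 5.048 to 5.658 (library 3) in control libraries, so the diets nearly met. Among control libraries this mean rose in the order of Fabp6, from 1 through 2 and 5 to 3. Among arsenic libraries it followed that order but for 12 and 14, which were exchanged. Mevalonate kinase (Mvk), which phosphorylates mevalonate on the way to cholesterol, had 37.4, 38.2, 55.6, 53.2 and 33.6 CPM on arsenic and 13.2, 12.8, 17.9 and 15.9 CPM on control feed. Its lowest arsenic library lay above its highest control library, and its log2 fold change was 1.54 ± 0.18 (edgeR adjusted p = 0.00357). Mvd, which turns mevalonate diphosphate into the isoprene unit, had 56.8, 48.2, 79.6, 61.2 and 37.3 CPM on arsenic and 19.1, 14.9, 27.4 and 21.5 CPM on control feed (1.45 ± 0.23, adjusted p = 0.0106). Both are held. Dhcr7, which carries out a last step towards cholesterol, had 49.2 to 75.9 CPM on arsenic and 20.2 to 34.7 CPM on control feed (1.20 ± 0.20, adjusted p = 0.0106); without control 2 its adjusted p was 0.0522. Among the other genes of the list that rose were Lss, Hmgcs1, Fdft1, Hsd17b7, Pmvk and Nsdhl, with log2 fold changes of 0.43 (Pmvk) to 1.21 (Lss).

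Genes that sense sterol rose beside them in part. Insig1, the ER protein that holds back the sterol-regulated factors when sterol is plentiful and is itself their target, had 144, 122, 115, 135 and 98.9 CPM on arsenic and 51.8, 42.2, 58.8 and 61.7 CPM on control feed. The diets did not overlap, and the log2 fold change was 1.20 ± 0.14 (edgeR adjusted p = 0.00357), which is held. Srebf2, the factor that switches on cholesterol synthesis, had 206 to 346 CPM on arsenic and 95.5 to 146 CPM on control feed (1.01 ± 0.19, adjusted p = 0.017, but 0.052 without control 1 and 0.0792 without control 2). Of 20 genes of sterol sensing and uptake, 4 rose (among them Insig1, Srebf2 and Scap) and 1 fell (Insig2), with a median of 0.12. Of all genes, 4.02% rose and 3.28% fell. Scap and Insig2 were called in 2 and 3 of the 9 fits that leave out 1 library. Over the whole list of cholesterol synthesis, 11 genes were called higher without arsenic 14 and 15 and 11 with Fabp6, but 3 without control 1 and 2 without control 2. Of the sterol sensing list, 3 were called higher in each of the first 2 fits, and 2 and 1 in the others.

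Heat shock chaperones were lower on arsenic. Of 31 genes tested, 10 fell and 0 rose, beside 3.28% and 4.02% of all genes, and the median log2 fold change was -0.35. Hsph1, an HSP110 that helps HSP70 exchange its nucleotide, had 49.4, 31.1, 42.7, 43.5 and 34.6 CPM on arsenic and 112, 119.7, 132 and 96.5 CPM on control feed. Its highest arsenic library lay below its lowest control library, and the log2 fold change was -1.51 ± 0.14 (edgeR adjusted p = 0.0023). Hspa1b, an inducible HSP70, had 7.19, 7.27, 6.76, 7.57 and 5.77 CPM on arsenic and 16.5, 22.2, 19.2 and 15 CPM on control feed (-1.40 ± 0.14, adjusted p = 0.0023). Its reads can be split with its near-identical copy Hspa1a. Chordc1, a co-chaperone of HSP90, had the smallest p of all genes: 40.7, 35.1, 39.2, 38.2 and 43.6 CPM on arsenic and 86.3, 85.3, 98.6 and 80.6 CPM on control feed (-1.16 ± 0.09, adjusted p = 0.00133).

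These 3 genes are held. The other 7 that fell, Dnaja1, Hspa8, Hspa4l, Cacybp, Hsp90aa1, Ahsa2 and Dnajb4, had log2 fold changes of -0.76 (Dnaja1) to -0.44 (Cacybp) and were called in 6 fits at most of the 9 that leave out 1 library. Of the list 6 were called without arsenic 14 and 15 and 7 with Fabp6, and 5 without arsenic 12, 4, 3, 3 and 5 without control 1, 2, 3 and 5. The next held genes of related function were on no list and were chosen after their values were seen. Ttc4, an HSP90 co-chaperone, had 44.5, 40.6, 44.7, 41.3 and 46.7 CPM on arsenic and 70.7, 59.9, 64.4 and 65.2 CPM on control feed (-0.58 ± 0.08, adjusted p = 0.00619). Hspa13, an HSP70 family member of the microsomes, had 31.6 to 39.6 CPM on arsenic and 49.9 to 65.8 CPM on control feed (-0.72 ± 0.11, adjusted p = 0.00988). The mean log2 CPM of the heat shock list was 5.71 to 5.86 in arsenic libraries and 6.19 to 6.22 in control libraries.

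Chaperones of the endoplasmic reticulum (ER) fell with them. Of 22 tested, 7 fell and 0 rose, beside 3.28% and 4.02% of all genes, with a median of -0.32. Hspa5, the main HSP70 of the ER lumen, had 581, 669, 666, 718 and 578 CPM on arsenic and 1137, 1175, 1282 and 1119.8 CPM on control feed. The diets stood well apart, and the log2 fold change was -0.88 ± 0.12 (edgeR adjusted p = 0.00559), and the gene is held. Dnajc3, a co-chaperone of Hspa5, had 145 to 161 CPM on arsenic and 198 to 244 CPM on control feed (-0.52 ± 0.10, adjusted p = 0.0142, but 0.0596 without control 2 and 0.073 without control 3). Creld2, an ER stress gene, had 43.8 to 72.6 CPM on arsenic and 87.4 to 101 CPM on control feed (-0.67 ± 0.13, adjusted p = 0.0186, but 0.062, 0.0775 and 0.0617 without control 1, 2 and 3). The count of 7 was 4 without arsenic 14 and 15 and 6 with Fabp6. It was 3, 4 and 4 without arsenic 12, 13 and 14 and 2, 1, 1 and 3 without control 1, 2, 3 and 5. Gpx7, a peroxidase of the ER, is a held gene with 2.73, 3.9, 4.75, 3.24 and 3.64 CPM on arsenic and 8.56, 11.5, 11.1 and 9.74 CPM on control feed (-1.48 ± 0.18, adjusted p = 0.00357). Of 18 genes of the integrated stress response, which ATF4 drives, 0 passed the edgeR test, with 2 higher and 2 lower at an unadjusted p under 0.05 and 2 lower in DESeq2. Of 8 subunits of the CCT chaperonin, 0 passed in edgeR or DESeq2 and 0 had an unadjusted p under 0.05.

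**Figure D4:**
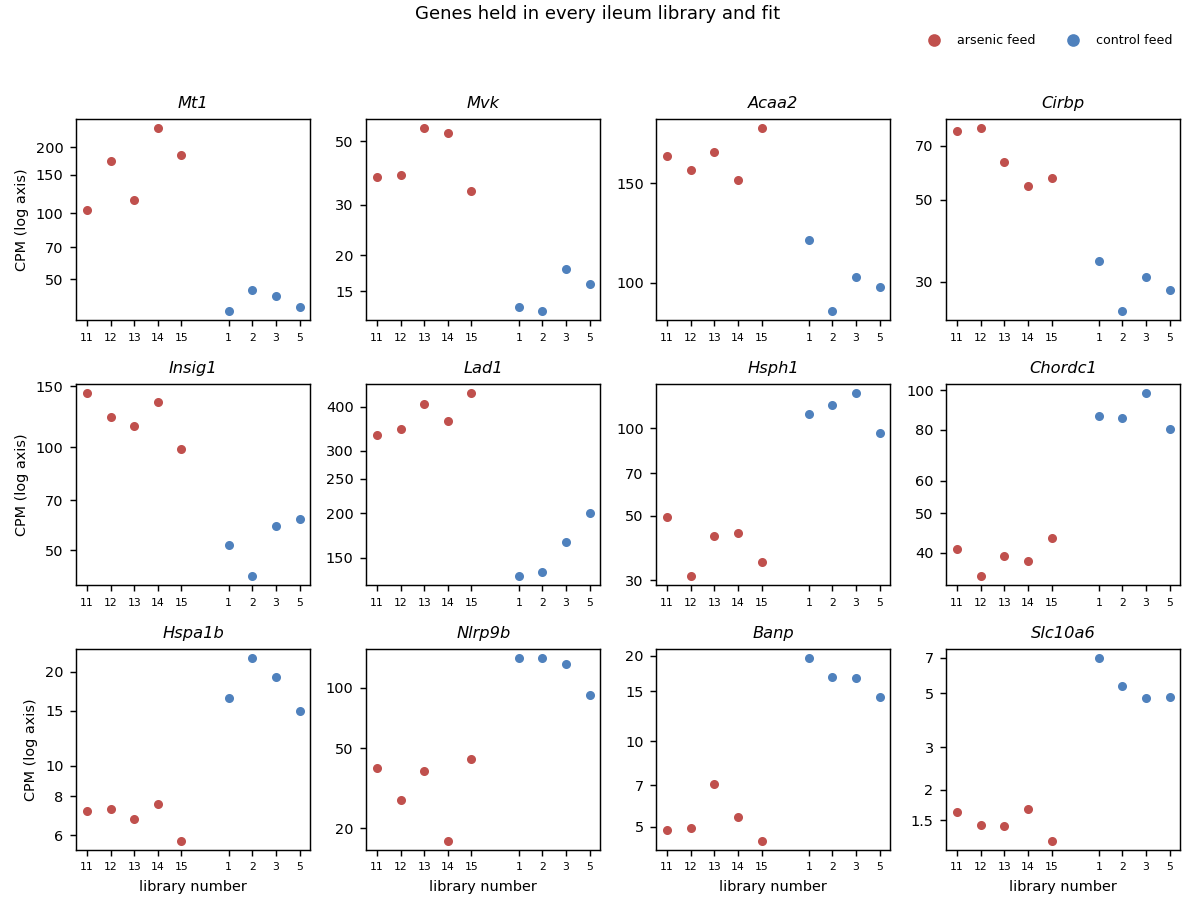
CPM (log axis) of 12 held genes in each ileum library, 1 point per library, arsenic libraries 11 to 15 left of control libraries 1, 2, 3 and 5; each panel has its own scale. In every panel all arsenic points lie on one side of all control points, arsenic 14 and 15 included.

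Some genes of fatty acid oxidation were higher on arsenic. Acaa2, the thiolase that ends each round of mitochondrial beta-oxidation, had 168, 159, 171, 152 and 188 CPM on arsenic and 119, 89.1, 102 and 98.3 CPM on control feed. The diets did not overlap, the log2 fold change was 0.71 ± 0.11 (edgeR adjusted p = 0.00963), and the gene is held. Ucp2, a carrier of the inner mitochondrial membrane, had 363 to 611 CPM on arsenic and 198 to 292 CPM on control feed (1.09 ± 0.18, adjusted p = 0.0105, and 0.0526 without control 2); its exons overlap those of Dnajb13. Of 27 genes of fatty acid oxidation and PPARA targets tested, 6 rose (among them Acaa2, Ucp2, Acads, Acot1 and Acot2) and 1 fell (Angptl4, called in 2 of the 9 fits), with a median of 0.21. Of all genes, 4.02% rose and 3.28% fell. Over the whole list of fatty acid oxidation, 7 were called higher without arsenic 14 and 15 and 8 with Fabp6, but 3 without control 1 and 2 without control 2. Of 16 genes of fatty acid synthesis, 0 passed the edgeR test, with 1 higher and 2 lower at an unadjusted p under 0.05 and 0 in DESeq2.

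Regulators of RNA moved in both directions. Cirbp, the cold-inducible RNA-binding protein, had 76.7, 78.4, 63.4, 54.4 and 57.3 CPM on arsenic and 34.1, 25.1, 31 and 28.5 CPM on control feed, without overlap (1.15 ± 0.14, edgeR adjusted p = 0.00357). Tra2a, a splicing activator, had 50.2, 47.5, 62.4, 66 and 70.5 CPM on arsenic and 133, 129, 131 and 142 CPM on control feed (-1.17 ± 0.13, adjusted p = 0.00275). Both are held. Of 12 cold-inducible and splicing genes tested, 1 rose (Cirbp) and 3 fell (Tra2a, Srsf7 and Clk1), beside 4.02% and 3.28% of all genes. The median of the list was -0.13. Srsf7, an SR splicing factor, had 65.2 to 90.1 CPM on arsenic and 99.9 to 119 CPM on control feed. It had a log2 fold change of -0.49 ± 0.12 and an adjusted p of 0.0349, which passed 0.05 without arsenic 12 or 14 or any of the 4 control libraries (0.0504 to 0.132). Clk1, a kinase of SR proteins, lost its call (-0.40 ± 0.11, adjusted p = 0.0487) when any library was left out but arsenic 15 (0.0705 to 0.171).

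Further held genes of RNA handling were on no list and were chosen after their values were seen. The cyclins Ccnl1 and Ccnl2, partners of splicing kinases, had log2 fold changes of -0.64 ± 0.08 and -0.73 ± 0.10 (edgeR adjusted p of 0.00432 and 0.00557). Rnps1 and Eif4a3, components of the exon junction complex, were higher by 0.67 ± 0.10 and 0.68 ± 0.11 on the log2 scale (adjusted p of 0.00896 and 0.00911). Nop53, a factor of ribosome assembly, had 157, 176, 194, 155 and 178 CPM on arsenic and 103, 89.7, 92.5 and 101 CPM on control feed (0.83 ± 0.10, adjusted p = 0.00368). The helicase Ddx54 (0.92 ± 0.14), the exosome subunit Exosc5 (0.66 ± 0.10), the RNA-binding protein Hnrnpd (0.74 ± 0.12) and the mitochondrial ribosome proteins Mrps34 (0.89 ± 0.13), Mrpl2 (0.75 ± 0.11) and Mrps18a (0.60 ± 0.09) rose too. The mitochondrial ribosomal RNAs fell: mt-Rnr2 had 876, 787, 855, 549 and 834 CPM on arsenic and 2279, 1844, 2033 and 1512 CPM on control feed (-1.30 ± 0.18, adjusted p = 0.00557), and mt-Rnr1 changed by -1.12 ± 0.17. Poly-A selection, which the libraries underwent, removes most ribosomal RNA. The share of all counts from mitochondrial genes was 3.32 to 4.66% in arsenic libraries and 3.89 to 4.78% in control libraries.

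Several sensors of microbes fell on arsenic. Nlrp9b, an inflammasome receptor of the mouse intestinal epithelium that answers viral RNA, had 39.9, 27.8, 38.5, 17.4 and 44.3 CPM on arsenic and 140.1, 141, 131 and 92.4 CPM on control feed. The highest arsenic library lay below the lowest control library, and the log2 fold change was -1.91 ± 0.25 (edgeR adjusted p = 0.0059), which is held; its exons overlap a predicted gene. Alpk1, a kinase that senses a bacterial sugar, had 15.8, 13.1, 19.4, 17.5 and 9.76 CPM on arsenic and 43.8, 65, 48 and 46.9 CPM on control feed (-1.75 ± 0.19, adjusted p = 0.00302). Of 20 inflammasome and cell death sensors tested, 3 fell (Nlrp9b, Nlrc4 and Naip5) and 0 rose, beside 3.28% and 4.02% of all genes. The median of the list was -0.28. Nlrc4, the adaptor for flagellin sensing, had 37.2 to 63.8 CPM on arsenic and 67 to 94.9 CPM on control feed (-0.77 ± 0.17, adjusted p = 0.024). Without arsenic 12 or control 2, 3 or 5 its adjusted p was 0.06 to 0.0898, and it was 0.0667 without arsenic 14 and 15 together. Naip5, a flagellin receptor with near-identical paralogs, had 172 to 316 CPM on arsenic and 348 to 474 CPM on control feed (-0.76 ± 0.18, adjusted p = 0.0339, but 0.0589 to 0.130 without arsenic 12, 13 or 14 or any control library). The count of 3 was 1 without arsenic 12, control 2, control 3 or control 5 and 5 without arsenic 15.

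Some other held genes with roles in immune signalling were on no list and were chosen after their values were seen, so they show no direction for such genes as a whole. Zc3h12d, an RNase of immune cells, was higher, with 39.2 to 55.7 CPM on arsenic and 19.2 to 28 CPM on control feed (0.87 ± 0.14, edgeR adjusted p = 0.01). Ikbke, a kinase upstream of interferon, had 45.3 to 56.9 CPM on arsenic and 79.5 to 93.2 CPM on control feed (log2 fold change -0.73 ± 0.10, edgeR adjusted p = 0.0052). Trim40, a ubiquitin ligase of the gut, had 46.3 to 66 CPM on arsenic and 87.7 to 104 CPM on control feed (-0.78 ± 0.12, adjusted p = 0.00896). Clec2d, a ligand of a natural killer cell receptor, had 53.4 to 72.1 CPM on arsenic and 94.2 to 102 CPM on control feed (-0.66 ± 0.11, adjusted p = 0.0102). Itgb2l, an integrin beta chain, had 5.62, 3.31, 5.23, 4.7 and 7.49 CPM on arsenic and 13.3, 18.1, 15.5 and 12.1 CPM on control feed (-1.49 ± 0.22, adjusted p = 0.00784). Of 24 interferon response genes, 1 fell, Mx1, an antiviral GTPase (-1.60 ± 0.31, adjusted p = 0.0185; called in 6 of the 9 fits), and the median was 0.06.

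Among the other held genes that rose, several belong to the epithelial surface and to signalling. Lad1, a protein of anchoring filaments, had 333, 345, 408, 365 and 437 CPM on arsenic and 133, 137, 166 and 200.3 CPM on control feed (log2 fold change 1.25 ± 0.15, edgeR adjusted p = 0.00357). Nectin1, an adhesion molecule of cell junctions, had 19.3, 20.5, 26.3, 31.8 and 30.4 CPM on arsenic and 12.8, 9.38, 12.9 and 12.3 CPM on control feed (1.11 ± 0.18, adjusted p = 0.0102). Of all held genes its fold change kept the smallest share without arsenic 14 and 15 and with Fabp6, with log2 fold changes of 0.92 and 0.98. Ndrg1, a stress and differentiation gene, had 74.7, 79.5, 82.3, 92.5 and 116 CPM on arsenic and 45.8, 29.3, 35.8 and 53.7 CPM on control feed (1.11 ± 0.19, adjusted p = 0.0112); its exons overlap those of 2 predicted genes. Aldoc, an aldolase of sugar breakdown, had 6.69 to 10.4 CPM on arsenic and 2.62 to 4.14 CPM on control feed (1.24 ± 0.19). Itpka, an inositol phosphate kinase, had 35 to 47.7 CPM on arsenic and 18.3 to 24.8 CPM on control feed (0.97 ± 0.13). Map3k9, a kinase that activates the JNK pathway, had 12 to 16.6 CPM on arsenic and 4.25 to 7.23 CPM on control feed (1.11 ± 0.18). Gramd2 (1.40 ± 0.21), Sh3d21 (1.23 ± 0.15) and Msto1 (1.01 ± 0.14; exons overlapping Gon4l) are also among the 15 largest rises, taken over genes averaging 1 CPM or more, with adjusted p of 0.00813, 0.00357 and 0.00614. Chd4 and Mta1, subunits of a chromatin remodeller that removes acetyl groups, and the linker histone H1f0 were chosen after their values were seen. Chd4 had 166, 185, 214, 204 and 220.4 CPM on arsenic and 98.7, 100.3, 97.3 and 114 CPM on control feed (0.95 ± 0.11, adjusted p = 0.00357), Mta1 changed by 0.71 ± 0.11 and H1f0 by 0.90 ± 0.12.

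With predicted genes left aside, the held genes that fell furthest after Nlrp9b included transport, cytoskeletal and nuclear genes. Slc10a6, a carrier of sulfated steroids, had 1.62, 1.43, 1.43, 1.68 and 1.24 CPM on arsenic and 6.99, 5.36, 4.8 and 4.84 CPM on control feed (log2 fold change -1.89 ± 0.19, edgeR adjusted p = 0.0023). Banp, a nuclear protein that binds DNA at promoters, had 4.86, 4.93, 7.07, 5.41 and 4.47 CPM on arsenic and 19.7, 16.9, 16.7 and 14.4 CPM on control feed (-1.66 ± 0.16, adjusted p = 0.0023). Ttll3, an enzyme that adds glycine to tubulin, had 10.6, 8.25, 10.7, 8.32 and 11.4 CPM on arsenic and 36.8, 28.5, 28.3 and 26.3 CPM on control feed (-1.60 ± 0.14, adjusted p = 0.00225). In each of the 3 the arsenic libraries stood together, below all control libraries. Tppp, a protein that bundles microtubules, had 20.6, 13.9, 13.4, 13.7 and 13.6 CPM on arsenic and 34.1, 40.7, 50.8 and 24.1 CPM on control feed (-1.31 ± 0.21, adjusted p = 0.0102). Rdh16, a retinol dehydrogenase, had 3.83 to 5.02 CPM on arsenic and 9.2 to 17.2 CPM on control feed (-1.50 ± 0.20). Col11a2, a collagen chain, had 1.79 to 2.64 CPM on arsenic and 4.95 to 6.35 CPM on control feed (-1.34 ± 0.19). P4ha1, which hydroxylates collagen and was chosen after its values were seen, had 7.55 to 11.4 CPM on arsenic and 18.7 to 22.2 CPM on control feed (-1.12 ± 0.14). Gpr17, a G protein-coupled receptor (-1.84 ± 0.31), Fam151a (-1.79 ± 0.28) and the RNA AI427809 (-1.37 ± 0.14) complete the 15, with adjusted p of 0.0107, 0.0106 and 0.0023. Exons of Banp, Ttll3, Gpr17, Fam151a and Rdh16 overlap those of a second gene, so their counts are uncertain to that extent.

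Among the called genes that lost the call both without arsenic 14 and 15 and with Fabp6 were a brush border carrier, a defensin and a rhythmic gene. The loss of a call is no measure of position, since the fold changes of these 3 stayed close to those over 9 libraries. Slc6a18, an amino acid carrier of the brush border, had 0.405, 0.325, 1.48, 0.0541 and 0.962 CPM on arsenic and 3.55, 3.79, 3.39 and 1.71 CPM on control feed. Arsenic 13 lay just below control 5, and the log2 fold change of -2.26 ± 0.58 had an edgeR adjusted p of 0.0422, against -2.02 and 0.0629 without arsenic 14 and 15 and -2.18 and 0.0664 with Fabp6. Defa36, a Paneth cell defensin with near-identical relatives, had 43.3, 13.8, 51.1, 48.5 and 29.9 CPM on arsenic and 94.9, 108, 129.8 and 66.2 CPM on control feed (-1.42 ± 0.35, adjusted p = 0.0405, against -1.44 and 0.112 without arsenic 14 and 15 and -1.38 and 0.0801 with Fabp6). Noct, a rhythmic gene of lipid handling, had 23.5, 46.7, 70.5, 24.3 and 75.7 CPM on arsenic and 159, 131, 149 and 98.3 CPM on control feed (-1.48 ± 0.36, adjusted p = 0.0408, against -1.49 and 0.0623 and -1.55 and 0.0643 in the same 2 fits). Sptssb (-1.43 ± 0.36) and Mir145a (-1.60 ± 0.42) complete the 5 largest falls of this kind. The 5 largest rises of this kind were Hcn2 (1.08 ± 0.25), Gnl1 (0.81 ± 0.20), Ly6e (0.80 ± 0.21), Fgfr3 (0.79 ± 0.20) and Slc16a13 (0.77 ± 0.19), with adjusted p of 0.0318 to 0.0476. Leaving out control 2 alone took the adjusted p of all 10 to 0.111 to 0.151.

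The calls in 2 further lists depended on which libraries were used. Of 38 genes of oxidative phosphorylation, 4 rose (Uqcrc1, Cox5a, Cyc1 and Ndufs7), beside 4.02% of all genes, with a median of 0.21. Of these 4, 0 were called without arsenic 14 and 15 and 2 with Fabp6. Uqcrc1, a subunit of complex III, had 381, 617, 501, 639.7 and 729 CPM on arsenic and 297, 286, 305 and 377 CPM on control feed (log2 fold change 0.86 ± 0.19, edgeR adjusted p = 0.0248, and 0.0601 without arsenic 14 and 15). Its lowest arsenic library, 11, nearly met control 5. Cox5a (0.50 ± 0.12) and Cyc1 (0.60 ± 0.15) had adjusted p of 0.0678 and 0.0859 without arsenic 14 and 15. The count of 4 was 10 without arsenic 11, 2 without arsenic 13, 1 without control 5 and 0 without arsenic 12, arsenic 14 or control 1, 2 or 3. Of 42 ribosomal protein genes, 6 rose (among them Rplp2, Rpl28, Rps9, Rps2 and Rpl8), beside 4.02% of all genes, with a median of 0.13. Of these 6, 4 were called without arsenic 14 and 15 and 4 with Fabp6. Rplp2 had 264 to 368 CPM on arsenic and 153 to 196 CPM on control feed (0.81 ± 0.13, adjusted p = 0.0106) and Rpl28 changed by 0.58 ± 0.11. The count of 6 was 3, 2 and 2 without arsenic 12, 13 and 14 and 1, 0, 1 and 3 without control 1, 2, 3 and 5. Genes of this family have processed copies and their counts are uncertain.

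Cell type lists gave few calls in edgeR and more in DESeq2. Of all genes, 3.28% fell and 4.02% rose in edgeR. Of 18 Paneth cell genes, 2 fell, Defa26 (-0.92 ± 0.23) and Defa3 (-0.83 ± 0.22), called in 3 and 1 of the 9 fits that leave out 1 library, while 15 were lower at an unadjusted p under 0.05, 12 were lower in DESeq2 and the median was -0.89. Their summed level was 4437 to 14364 CPM in arsenic libraries and 12147 to 21475 CPM in control libraries, and both genes lost their call without arsenic 14 and 15 and with Fabp6. Of 18 smooth muscle genes, 1 fell (Casq2, -1.02 ± 0.18; not called without 1 of the 9 libraries), 13 were lower at an unadjusted p under 0.05 and 5 in DESeq2, with a median of -0.43. Their summed level was 6384 to 7149 CPM in arsenic libraries and 6579 to 12165 CPM in control libraries. Of 16 enterocyte genes 0 passed the edgeR test, with 1 higher and 1 lower at an unadjusted p under 0.05 and the same numbers in DESeq2. The part of Paneth cells in the changes above was not tested.

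Some measures of the libraries moved with the diet. Clock, a core activator of the circadian clock, fell (74.2, 65.5, 65.5, 69.5 and 83.6 CPM on arsenic and 96.1, 101, 98.2 and 90.5 CPM on control feed; log2 fold change -0.43 ± 0.10, edgeR adjusted p = 0.0265), and so did its partner Arntl (9.67, 7.21, 13.4, 9.14 and 6.46 CPM on arsenic and 13.5, 22, 19.2 and 14.6 CPM on control feed; -0.91 ± 0.22, adjusted p = 0.0357). They were called in 2 and 3 of the 9 fits that leave out 1 library. Dbp, a clock output gene, had 52.3, 92.3, 37, 74.9 and 152 CPM on arsenic and 45.7, 23.1, 32.4 and 28.1 CPM on control feed (1.34 ± 0.39, adjusted p = 0.0721). The clock score, the mean log2 CPM of the activators minus that of the output and repressor genes, was -1.52 to -0.60 in arsenic libraries and -0.57 to 0.03 in control libraries, so it did not overlap between the diets and cannot be told apart from diet. With it as a covariate 0 genes passed in edgeR, with 2656 at an unadjusted p under 0.05. All 1190 called genes kept their sign, so the sign does not set the held genes apart. All 115 held genes had an unadjusted p under 0.05 in this edgeR fit, but they were chosen by their calls in the same libraries. Their fold changes came to 56.4 (Ndrg1) to 144% of the values over 9 libraries, with a median of 93.7%. The median of the heat shock list was then -0.32, that of the ER chaperones -0.30, that of the inflammasome sensors -0.24 and that of cholesterol synthesis 1.00, while other medians given above turned: that of fatty acid oxidation was -0.01, of oxidative phosphorylation -0.11, of sterol sensing and uptake -0.04, of the interferon response -0.00, of the distal position genes 0.36 and of the proximal ones -2.48. The smooth muscle score, the mean log2 CPM of that list, was 7.19 to 7.43 in arsenic libraries and 7.33 to 8.16 in control libraries. With it as a covariate 1 gene passed, and all 115 held genes again kept their sign and an unadjusted p under 0.05, at 59.1 (Fbxl22) to 121% of the first values.

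Base composition differed between the genes that rose and those that fell. The median GC share of transcripts was 56.2% in the 56 held genes that rose, 45.6% in the 59 held genes that fell and 49.6% in all genes tested, and over all called genes 55.4% and 44.9%. A correction for GC, chosen after seeing the data, left 524 of 16291 genes called (3.22%), among them 112 of the 115 held genes. All 115 kept their sign, at 55.7 (Nbeal1) to 124% of the first fold changes, with a median of 89.0%. Transcripts were also shorter among held genes that rose, with a median of 2868 bases, than among those that fell, with 4043 bases.

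The cecum and colon libraries, which played no part in choosing the held genes, gave further values for them. Libraries of the 3 regions share numbers, and whether those with the same number came from the same mouse is not stated in the labels. In the cecum, where 25.2% of 15590 genes were called between arsenic and control feed, 47 of the 112 held genes tested were called in the same direction and 2 in the opposite one. In the colon, where 0.649% of 16492 genes were called, 17 of the 113 tested were called in the same direction and 0 in the opposite one. These are 40.9% and 14.8% of the held genes, and 1.20% of the calls in the cecum and 15.9% of those in the colon. The same 17 genes were called the same way in all 3 regions. They were 6 that rose, Cirbp, Mvd, Mvk, Pcif1, Chmp6 and Zbtb22, and 11 that fell, Banp, Hsph1, Hspa1b, Chordc1, Hspa5, Hspa13, Tra2a, Ttll3, mt-Rnr2, Zbtb40 and Ints8.

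The sizes differed by gene. Hsph1 changed by -1.55 ± 0.13 in the cecum (edgeR adjusted p = 2.95e-05) and -1.55 ± 0.18 in the colon (adjusted p = 0.00822), beside -1.51 ± 0.14 in the ileum. Cirbp changed by 1.34 ± 0.13 and 1.38 ± 0.12, beside 1.15 ± 0.14 in the ileum. Mvk changed by 0.43 ± 0.12 in the cecum and 0.71 ± 0.13 in the colon, beside 1.54 ± 0.18 in the ileum. Mt1 rose in the cecum by 1.71 ± 0.11 (adjusted p = 8.41e-07) and had 1.37 ± 0.40 in the colon (adjusted p = 0.166). Lad1 had 0.01 ± 0.09 in the cecum and 0.23 ± 0.12 in the colon, with adjusted p of 0.929 and 0.438. Nlrp9b fell in the cecum (log2 fold change -0.32 ± 0.09, adjusted p = 0.0208) and had -0.29 ± 0.25 in the colon (adjusted p = 0.679). The 2 held genes called the opposite way in the cecum were Chd4 (-0.25 ± 0.08) and 5031439G07Rik (-0.37 ± 0.10). Whether the fold change of any gene differs between regions was not tested here.

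**Figure D5:**
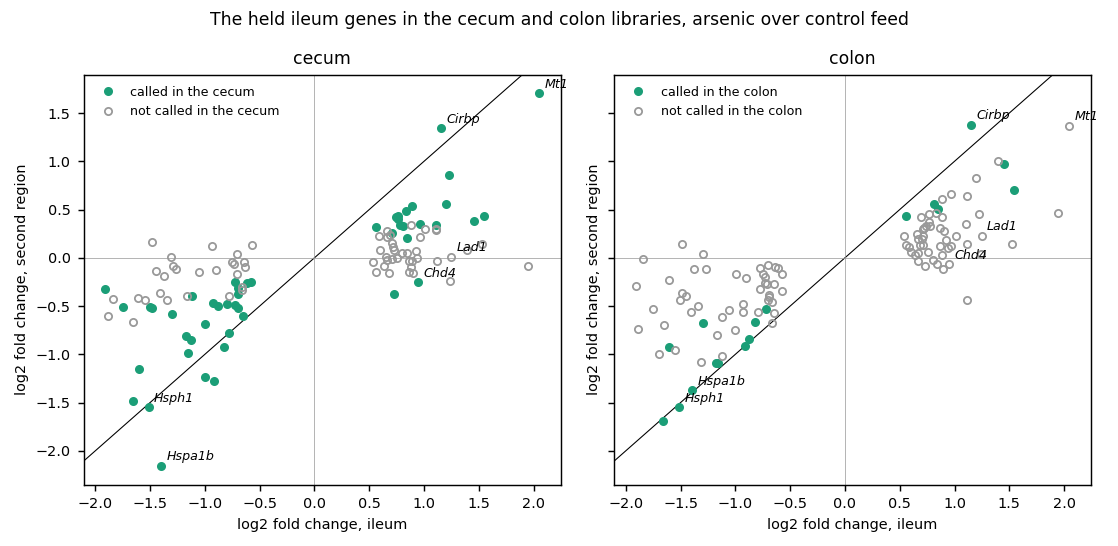
Log2 fold change, arsenic over control feed, of the held ileum genes in the ileum (x axis) and in the cecum (left) or colon (right, y axes), filled where called in that region; the line marks equal values. Hsph1 and Cirbp lie near the line in both panels, while Lad1 lies near 0 on the y axes.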

How the data were processed

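Whole-number read counts for 52550 Ensembl genes in 27 libraries were deposited in 1 table. The 9 ileum libraries carry the main comparison, and the 9 cecum and 9 colon libraries give the values set beside it. The authors' read processing is known only per the submitters' processing notes, which name HISAT2 2.1.0, SAMtools, HTSeq 0.6.0 and DESeq2 1.6.3. Which build, annotation release and strand setting were used is not given in the sources used here. Without strand, reads of overlapping and antisense genes cannot be told apart, and near-identical genes (Hspa1a and Hspa1b, defensins, Naip paralogs) are uncertain. Symbols were matched for 52403 identifiers, and the 147 others held under 0.01% of the counts of any ileum library.

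Diets were compared with R 4.3.3 and edgeR 4.0.16: genes kept by filterByExpr (minimum count 10, minimum total 15), TMM scaling, robust quasi-likelihood F-test, Benjamini-Hochberg adjustment over the 16305 genes kept and a threshold of 0.05. The SE of a log2 fold change is its size divided by the square root of F. The ileum libraries held 15717600 to 18208518 counts. Their biological coefficient of variation was 0.243, and log2 CPM (prior count 2) correlated at 0.952 to 0.976 between arsenic and at 0.975 to 0.985 between control libraries. The cecum and the colon were fitted in the same way, each by itself. The steps were tested on simulated data.

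The comparison, the 45 gene lists and the rule for named genes were chosen with earlier results of these data known. The rule names the 15 largest changes each way among held genes of at least 1 CPM (predicted genes, pseudogenes and receptor segments left out), up to 3 called members of each list with at least 3 calls, the 5 largest changes each way among genes whose call was lost both without arsenic 14 and 15 and with Fabp6, and the position and clock lists. Some genes that the rule names are not reported here; counts of lists include them.

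The alternatives were RLE and upper-quartile scaling, no filter, a 1 CPM filter, DESeq2 1.42.0, limma 3.58.1 voom with quality weights, all 27 libraries in 1 fit, that fit with library number as a replicate block (statmod 1.5.0), each library left out, arsenic 14 and 15 left out, Fabp6 and scores of position, clock and smooth muscle genes as covariates and, chosen after seeing the data, a GC correction (lowess span 0.3). The 2 ileum diets share no library number, so the numbers do not pair them. Transcript GC and length came from the mouse annotation supplied with the reference, and promoters from RefSeq on GRCm38.p6. Figures were drawn with matplotlib 3.10.9.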

Additional observations from a re-analysis of the deposited data

Results flagged for a closer look

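Each named gene was searched in each diet for a library that stood apart, meaning that its gap to the nearest library took up more of the range of its diet than Dixon's 95% critical value allows. This flagged 7 of 204 groups of libraries, and chance alone flags about 1 in 20. On arsenic feed, Sh3d21 had 25.9 CPM in library 15, above 17.6 to 18.4 CPM in the other arsenic libraries. Tppp had 20.6 CPM in arsenic 11, above 13.4 to 13.9 CPM in the others, and so stood nearer to the control libraries. Of the clock genes, Nfil3 had 12.3 CPM in arsenic 13 and 4.45 to 6.17 CPM in the other arsenic libraries, against 7.57 to 13 CPM on control feed. Per2 had 71.9 CPM in arsenic 15, above all control libraries (41.3 to 61.4 CPM), and 28.5 to 37.5 CPM in the other arsenic libraries, below all of them. On control feed, Itpka had 24.8 CPM in library 5, above 18.3 to 18.7 CPM in the others and nearer to the arsenic libraries. Map3k9 had 4.25 CPM in control 1, below 7.05 to 7.23 CPM in the others, and Nectin1 had 9.38 CPM in control 2, below 12.3 to 12.9 CPM in the others. Sh3d21, Tppp, Itpka, Map3k9 and Nectin1 are held genes. The rule for held genes required a call without each library in turn, so that their calls remained without the library that stood apart is no further test.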

How the results depend on the processing

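The 1190 genes called, 656 higher and 534 lower on arsenic, stayed within 1.5 times under RLE scaling (1103), upper-quartile scaling (1333), no filter (972), the 1 CPM filter (1220), Fabp6 (898) and the position score (1576). DESeq2 called 2105 (1205 higher, 900 lower), voom with quality weights 2138 (1048, 1090) and all 27 libraries in 1 fit 2889 (1844, 1045). With the replicate block in that fit, where libraries of the 3 regions that share a number are paired, 3038 were called (1814, 1224); the within-number correlation was 0.0927, the labels do not state that a number marks 1 mouse, and no paired analysis of the 2 ileum diets was possible because they share no number. Without arsenic 14 and 15, 673 were called (349, 324), and with the GC correction 524 (299, 225). Leaving out 1 library gave 121 to 1583 (58 to 844 higher, 63 to 739 lower). With the clock score 0 were called (0, 0; 2656 at an unadjusted p under 0.05) and with the smooth muscle score 1 (0, 1; 2491). DESeq2 called 33 held ileum genes in the colon in the same direction, beside 17. The median of all genes moved by at most 0.04 on the log2 scale. Fabp6, at -0.06, lay at -0.62 to 0.80 when 1 library was left out, above 0 without arsenic 12, 14 or 15 or control 3, and turned to 0.70 without arsenic 14 and 15, to 0.16 with the position score and to 3.58 with the clock score, and Fgf15 turned to 0.0382 with the clock score. The 115 held genes were called by rule with Fabp6 and in the fits that leave out libraries. Of the other fits, RLE and upper-quartile scaling, no filter, DESeq2, voom and the position score called all 115. The 1 CPM filter and all 27 libraries called 113 of them, and the block and the GC correction 112. The smooth muscle score left 1 called and the clock score 0. The cause of these differences was not tested. With 4 and 5 libraries and this spread, genes of small change or low count cannot be told apart from unchanged ones.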
